A study of Rattus norvegicus with 24 samples.

Results

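The regions described here are 2257 differentially methylated regions (DMRs) of rat sperm that lay inside a gene, spanned at most 10000 bp and had a methylation level below 2% in control animals at postnatal day (PND) 65. They were chosen by that PND65 control level from the 5327 age DMRs of the study, of which 3409 were gene-body regions of that length, and they fell in 1939 genes. Methylation was measured by reduced representation bisulfite sequencing, which reads cytosines in CpG-rich fragments after bisulfite has converted the unmethylated ones. Sperm of the cauda epididymis came from 24 male Wistar rats, 6 in each of 4 groups, after swim-up and a density gradient against somatic cells. The BDE-47 PND120 and BDE-47 PND65 animals were sons of dams given the brominated flame retardant BDE-47 in corn oil, 0.2 mg/kg of body weight each day, between day 8 of pregnancy and PND21. The Control PND120 and Control PND65 animals were sons of dams given the corn oil alone over the same days. Each litter gave 1 male at each age, so a PND120 animal may have a PND65 brother in the same arm.

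DNA methylation in mammals sits mostly on the cytosine of CpG dinucleotides. In sperm most of the genome is methylated, while CpG-rich stretches, many of them at the start of genes, are largely free of methylation. Developmental transcription factor genes are known for broad stretches of this kind that reach into the gene body.

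Each level below is the authors' value for a whole group and region, so no spread between the 6 animals of a group and no test between groups could be computed. The depth behind single regions is unknown beyond the minimum of 10 reads per CpG. The level of the PND65 controls chose the regions, and listing in the table required a significant age difference (q below 0.05) in controls, in BDE-47 animals or in both. That the other groups lie above the PND65 controls is therefore a description and no finding. Gene symbols and positions are those of the table, on the rat assembly rn6, and whether a region lies in an exon or an intron was not analysed here.

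RefSeq promoter windows of genes on which the results turn are shown first, as examples of the sequence at the starts of such genes. They run from 250 bases before the gene's start to 30 bases after it on assembly GRCr8, and every CG dinucleotide is in capitals. Tmem231 (chr19:56813486-56813765, minus strand) and Cyp26b1 (chr4:118616147-118616426, minus strand) held the largest control differences. H2afy2 (RefSeq symbol Macroh2a2, chr20:30270623-30270902, minus strand) is shown because its region was near 0% in BDE-47 animals. Rnf151 (chr10:14249503-14249782, minus strand) and Fbn1 (chr3:133203361-133203640, minus strand) held the highest and the lowest age difference in BDE-47 animals.
Tmem231: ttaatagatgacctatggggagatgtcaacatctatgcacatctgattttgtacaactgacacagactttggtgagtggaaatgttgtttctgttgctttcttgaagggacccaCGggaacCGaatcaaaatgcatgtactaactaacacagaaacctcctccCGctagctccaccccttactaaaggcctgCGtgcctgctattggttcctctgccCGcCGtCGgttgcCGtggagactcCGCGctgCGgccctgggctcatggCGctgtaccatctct
Cyp26b1: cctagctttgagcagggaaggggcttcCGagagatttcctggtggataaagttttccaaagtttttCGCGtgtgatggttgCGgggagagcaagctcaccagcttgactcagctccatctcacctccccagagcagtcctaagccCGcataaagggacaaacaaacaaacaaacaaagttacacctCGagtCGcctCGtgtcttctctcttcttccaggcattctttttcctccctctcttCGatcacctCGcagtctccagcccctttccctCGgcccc
H2afy2: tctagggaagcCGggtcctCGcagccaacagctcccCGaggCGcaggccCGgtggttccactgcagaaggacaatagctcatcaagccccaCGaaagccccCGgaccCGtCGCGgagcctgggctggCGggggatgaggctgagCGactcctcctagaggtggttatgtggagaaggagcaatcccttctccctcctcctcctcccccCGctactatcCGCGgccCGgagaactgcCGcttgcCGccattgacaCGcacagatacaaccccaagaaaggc
Rnf151: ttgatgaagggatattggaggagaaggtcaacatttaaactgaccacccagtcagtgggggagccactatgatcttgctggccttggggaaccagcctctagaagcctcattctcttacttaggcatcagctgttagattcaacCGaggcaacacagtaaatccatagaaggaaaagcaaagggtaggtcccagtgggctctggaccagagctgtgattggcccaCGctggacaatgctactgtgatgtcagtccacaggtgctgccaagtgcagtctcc
Fbn1: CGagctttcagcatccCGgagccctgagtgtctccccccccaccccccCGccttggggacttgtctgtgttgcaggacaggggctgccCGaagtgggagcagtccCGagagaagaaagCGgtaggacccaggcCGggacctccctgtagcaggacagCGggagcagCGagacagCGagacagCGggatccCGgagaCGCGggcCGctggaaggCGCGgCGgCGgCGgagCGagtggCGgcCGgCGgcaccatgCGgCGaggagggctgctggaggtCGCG
The windows held 12 CG in Tmem231, 11 in Cyp26b1, 19 in H2afy2, 2 in Rnf151 and 28 in Fbn1, the same on both strands. Over all 27457 RefSeq windows of this length, 93.9% held at least 1 CG and the median was 7. The letters CCGG, which overlap CG and are the cut site of the enzyme commonly used for this assay, occurred 4 times in H2afy2, 4 times in Fbn1 and 0 times in the others, and 51.0% of all windows held them. The distance between these windows and the DMRs was not analysed here, because the assemblies differ.

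The name "nearly unmethylated" held for the PND65 controls alone. Over the 2257 regions the median level was 5.83% in BDE-47 PND120 animals (quartiles 4.52 and 7.45), 6.27% in BDE-47 PND65 animals (4.92 and 7.97), 10.1% in Control PND120 animals (8.45 and 12.2) and 0.481% in Control PND65 animals (0.324 and 0.664). A level under 2% was found at 47 regions in BDE-47 PND120 animals (2.08%, against 1.31% of all 5327 age DMRs) and at 41 in BDE-47 PND65 animals (1.82%, against 1.13% of all age DMRs). In Control PND120 animals the lowest level was 5.60%. In Control PND65 animals 2057 of the regions were under 1% (91.1%, against 50.8% of all age DMRs) and 30 were listed at 0 (1.33%, against 0.676%). The rule in part fixes both shares in Control PND65 animals. How much it raises the shares under 2% in BDE-47 animals was not tested.

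**Figure D1:**
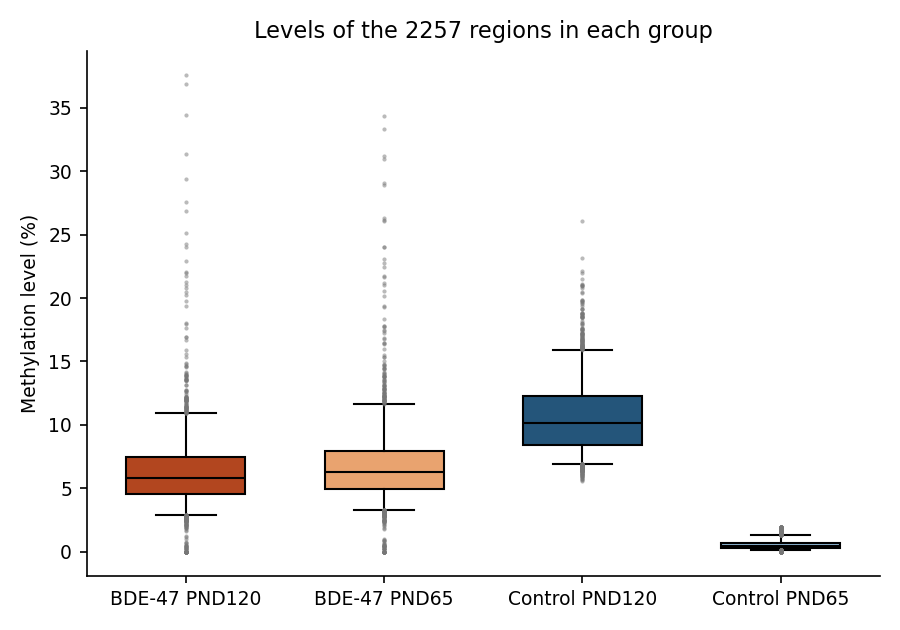
Methylation level in percent (y axis) of the 2257 regions in each of the 4 groups, 1 group value per region. Boxes span the quartiles with the median as a line, whiskers reach the 5th and 95th percentiles and dots are the remaining regions. The medians were 5.83% and 6.27% in BDE-47 animals, 10.1% in Control PND120 animals and 0.481% in Control PND65 animals.

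In BDE-47 animals the regions differed little between the ages. The median difference of PND120 minus PND65 was -0.432 points in BDE-47 animals (quartiles -1.02 and 0.0975) and 9.57 points in controls (7.93 and 11.7). The control differences ran from 5.00 to 25.0 points, and all 2257 were gains of at least 5 points (99.1% of all age DMRs were). The low PND65 control level and the listing favour large control gains, so the size and sign of the control differences are a description and no finding. The BDE-47 difference did not enter the level rule, and it was within 1 point at 1560 regions (69.1%, against 63.3% of all age DMRs) and within 2 points at 2103 (93.2%, against 86.6%). It was below 0 at 1606 regions (71.2%, against 66.9% of all age DMRs) and above 0 at 642 (28.4%, against 32.8%). The BDE-47 levels were low here as well (PND65 quartiles 4.92 and 7.97%), which limits the size of a loss. The share within 1 point was 65.8% in gene-body regions at 2 to under 10% in PND65 controls and 47.5% at 10% or more. How much of the contrast with all age DMRs comes from the level rule was not tested.

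Few regions moved by 5 points or more in BDE-47 animals. A gain of that size was found at 4 regions, 0.177% of the 2257, against 2.57% of all age DMRs, and a loss of that size at 6, 0.266% against 0.976%. All 10 had BDE-47 levels above the Control PND120 level at both ages, and they held 3 to 6 CpGs. Such moves were as rare in the 811 gene-body regions at 2 to under 10% in PND65 controls. There, gains and losses of that size were found at 2 regions each (0.247%). In the 341 gene-body regions at 10% or more, gains were found at 43 (12.6%) and losses at 11 (3.23%). How much of the contrast with all age DMRs comes from the level rule was not tested.

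**Figure D2:**
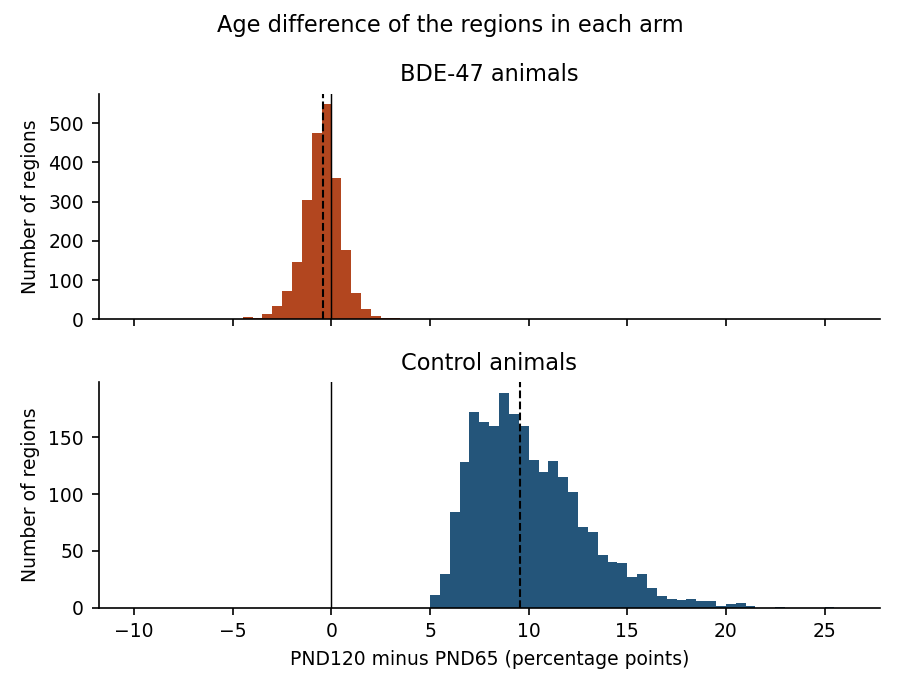
Number of regions (y axis) by the difference of PND120 minus PND65 in percentage points (x axis, bins of 0.5 points), for BDE-47 animals above and controls below. The dashed lines are the medians, -0.432 points in BDE-47 animals and 9.57 points in controls, and the solid lines mark 0.

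The BDE-47 levels lay mostly between the control levels of both ages. This held at 2137 regions at PND120 (94.7%, against 84.8% of all age DMRs), at 2124 at PND65 (94.1%, against 84.4%) and at 2108 at both ages (93.4%, against 82.1%). The midpoint of the control levels had a median of 5.36%. The BDE-47 level exceeded its region's midpoint by a median of 0.501 points at PND120 (quartiles -0.312 and 1.32) and 0.990 points at PND65 (0.120 and 1.83). Set against the Control PND120 level, the BDE-47 level was a median of 57.6% of it at PND120 and 62.5% at PND65. Where regions are listed for a low and a high control group, other groups can fall between them through that choice, and how much of these shares comes from it was not tested.

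At the same age, the levels of BDE-47 animals and controls stood apart in opposite directions. At PND120 the BDE-47 minus control difference had a median of -4.25 points (quartiles -5.51 and -3.19), and at 759 regions the BDE-47 level was lower by at least 5 points (33.6%, against 34% of all age DMRs). At PND65 the median difference was 5.73 points (4.41 and 7.40), and at 1439 regions the BDE-47 level was higher by at least 5 points (63.8%, against 59.9%). The PND65 control level in that second difference is the value the rule used. The PND120 difference is not free of the choice either, since all 2257 regions had a control gain of at least 5 points. How much of either difference comes from that choice was not tested. At 87 regions the BDE-47 PND120 level lay above the Control PND120 level (3.85%, against 9.8% of all age DMRs), and at 35 of these by at least 5 points (1.55%, against 4.19%). At 79 regions the BDE-47 levels of both ages lay above the Control PND120 level (3.50%, against 8.28%).

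The 10 regions with the largest control differences held 3 or 4 CpGs each. Tmem231, which encodes a protein of the ciliary transition zone, had 3 CpGs spread over chromosome 19 from 44158482 to 44164086. Its level was 11.4% in BDE-47 PND120 animals, 12.5% in BDE-47 PND65 animals, 26.1% in Control PND120 animals and 1.03% in Control PND65 animals. Cyp26b1, which degrades retinoic acid and in mice keeps male germ cells from entering meiosis early, had 3 CpGs on chromosome 4 from 116274883 to 116275413. It stood at 11.9% and 13.1% in BDE-47 animals at PND120 and PND65, and at 23.1% and 0.443% in controls at the same ages. In both genes the BDE-47 values stood close together, about midway between the control values.

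The next regions by control difference split into 3 patterns. In Ints6, a subunit of the Integrator complex that processes small nuclear RNAs, BDE-47 animals were at 25.2% at PND120 and 24.0% at PND65, against control values of 21.5% and 0.208%, so both BDE-47 values exceeded the Control PND120 value. In H2afy2, which encodes the histone variant macroH2A2, BDE-47 animals were at 0% (listed at 0) and 0.493%, against control values of 22.0% and 0.761%, so both BDE-47 values lay by the young controls. The third pattern, an intermediate BDE-47 level at both ages, was found in the cell cycle factor gene E2f3 (12.7% and 13.8%, against control values of 20.97% and 0.353%) and the protocadherin gene Pcdh17 (8.71% and 10.3%, against 22.2% and 1.55%). It was also found in LOC103693947, Zfp41, the actin-binding protein gene Lasp1 and the transcriptional coregulator gene Tcf20, where BDE-47 levels ran from 7.95 to 13.5% and Control PND120 levels from 20.8 to 21.1%.

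At the other end, the 5 smallest control differences ran from 5.00 to 5.40 points. Farsb, a subunit of phenylalanyl-tRNA synthetase, had 5.66% and 5.39% in BDE-47 animals at PND120 and PND65, against control values of 5.60% and 0.595%. In Farsb the young controls alone stood apart from the other groups, and their low value is the one the rule used. The others were C1ql1, Ndufb3 of mitochondrial complex I, the orphan nuclear receptor gene Nr2e1 and the leukotriene receptor gene Ltb4r2. Their BDE-47 levels ran from 2.30 to 5.43% and their Control PND120 levels from 5.70 to 6.17%.

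**Figure D3:**
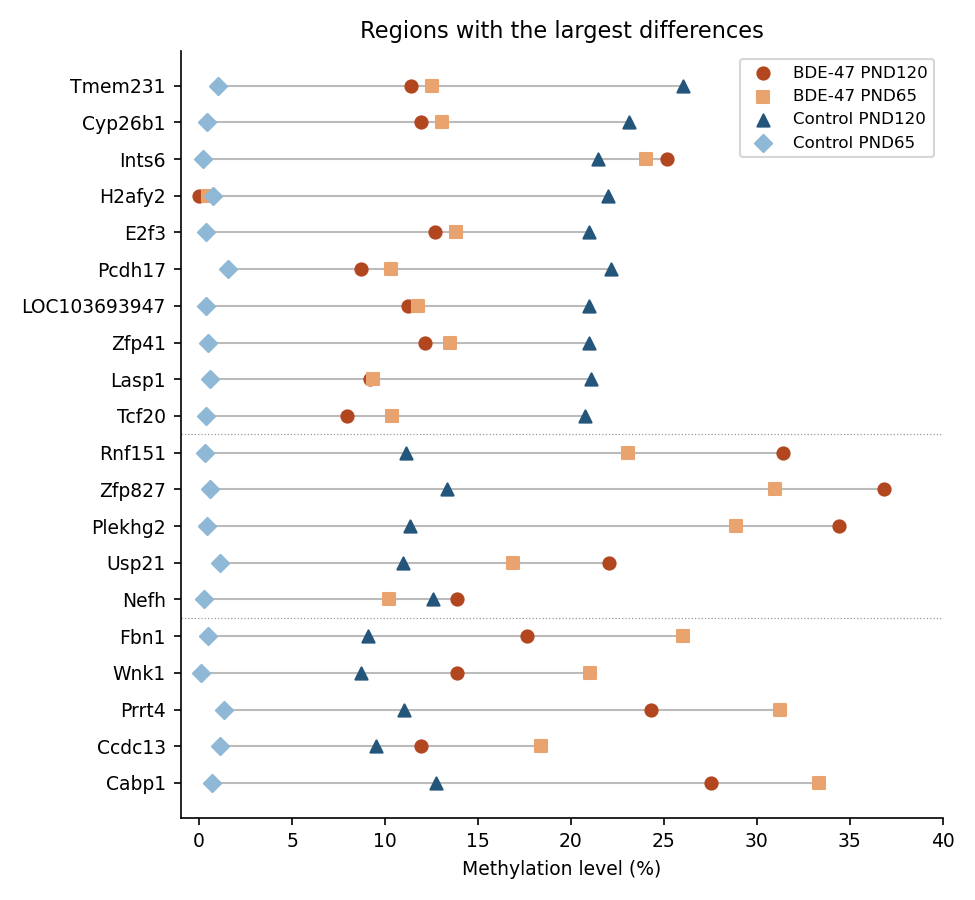
Methylation level in percent (x axis) in the 4 groups for the 10 regions with the largest control difference (top), the 5 with the highest (middle) and the 5 with the lowest (bottom) age difference in BDE-47 animals. Each symbol is 1 group value and the grey line joins the lowest to the highest. H2afy2 is the only one of the 20 with BDE-47 values at or below 0.493%.

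Across the regions, levels in BDE-47 animals of both ages followed each other closely. Pearson's r of the PND120 and PND65 levels was 0.944 and Spearman's rank coefficient 0.913 over 2257 regions. These points share the exposure arm, in part the litters, and the CpG content and read cover of each region. The BDE-47 PND120 level and the Control PND120 level had a Pearson r of 0.467 and a rank coefficient of 0.632. The age differences of the arms had a Pearson r of -0.0584 and a rank coefficient of -0.0583, so a larger control gain went with no larger BDE-47 difference.

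In 16 regions, chosen here after their values were seen, BDE-47 levels were at least 20% at both ages (0.709% of the 2257, against 17.5% of all age DMRs). They ran from 20.2 to 37.6% at PND120 and from 20.2 to 34.3% at PND65, and the Control PND120 levels there from 6.72 to 21.5%. Of these 16 regions, 14 held exactly 3 CpGs, against 44.9% of all 2257. Such BDE-47 levels were found at 1.97% of gene-body regions at 2 to under 10% in PND65 controls and at 58.7% of those at 10% or more. The level rule therefore in part fixes the contrast with all age DMRs.

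Rad54b, a helicase of homologous recombination repair, had the highest BDE-47 levels, with 37.6% at PND120 and 34.3% at PND65, against control values of 13.4% and 0.329%. This region of 3 CpGs lay on chromosome 5 from 25142428 to 25142471. Zfp827 had 36.9% and 30.95% in BDE-47 animals, against control values of 13.4% and 0.604%, and Plekhg2, a guanine nucleotide exchange factor gene, 34.4% and 28.9%, against 11.4% and 0.427%. In these 3 regions the BDE-47 levels were far above the Control PND120 level. The other regions in this tail lay in Tmem178a, Nxnl1, Prrt4, LOC100910970, LOC102548729, Slc39a11, Rnf151, Ppfia3, Sap30, Gprc5c, Cabp1, Shroom2 and Ints6.

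Sap30, part of the Sin3 histone deacetylase complex, had regions both above and below the Control PND120 level. On chromosome 16 the 3 CpGs from 36116089 to 36116117 stood at 29.4% and 26.3% in BDE-47 animals at PND120 and PND65, against control values of 11.7% and 0% (listed at 0). The neighbouring 3 CpGs, from 36116182 to 36116208, stood at 3.39% and 4.47% in BDE-47 animals, against control values of 6.45% and 0.351%. The adjoining regions of Sap30 thus differed by 26.0 points in BDE-47 PND120 animals, the widest gap between regions of 1 gene in that group. Of the 20 genes with a BDE-47 level of at least 20% at both ages or a BDE-47 age difference of at least 5 points, 4 held another of the regions, namely Sap30, Plekhg2, Fbn1 and LOC100910970. In all 4 of those other regions the BDE-47 levels lay below the Control PND120 level at both ages. The second region of Plekhg2 stood at 9.04% and 9.50% in BDE-47 animals, against control values of 13.3% and 0.398%. In the second region of LOC100910970 the BDE-47 levels were 5.64% and 5.71%, against control values of 15.8% and 0.218%.

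In the low tail, 40 regions were under 2% in BDE-47 animals at both ages, 1.77% of the 2257, against 1.09% of all age DMRs. They make up 40 of the 41 regions under 2% in BDE-47 PND65 animals. Such BDE-47 levels were found at 0.123% of gene-body regions at 2 to under 10% in PND65 controls and at 0 of the 341 at 10% or more. The level rule therefore in part fixes this contrast with all age DMRs too. The Control PND120 levels at these 40 regions ran from 7.24 to 22.0%, and 30 of the 40 held exactly 3 CpGs, against 44.9% of all 2257. Besides H2afy2 they lay in genes of varied function, here chosen after their values were seen. Hipk1, a nuclear kinase, was listed at 0% in BDE-47 animals of both ages, against control values of 13.4% and 0.565%, and Bcl2l11, which encodes the pro-apoptotic protein BIM, likewise at 0% in both, against 11.9% and 0.592%. The GTPase gene Hras was at 0% and 0.490% in BDE-47 animals, against control values of 12.0% and 0.465%. The related homeobox genes Nkx1-1 (0.120% and 0.426% in BDE-47 animals, against control values of 14.1% and 1.04%) and Nkx1-2 (0.503% and 0.825%, against 13.8% and 0.681%) were both in this tail. So were the lysosomal membrane protein genes Lamp1 (0.310% and 0%, against 11.7% and 0.127%) and Lamp2 on chromosome X (0% and 0.455%, against 10.1% and 0.789%).

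**Figure D4:**
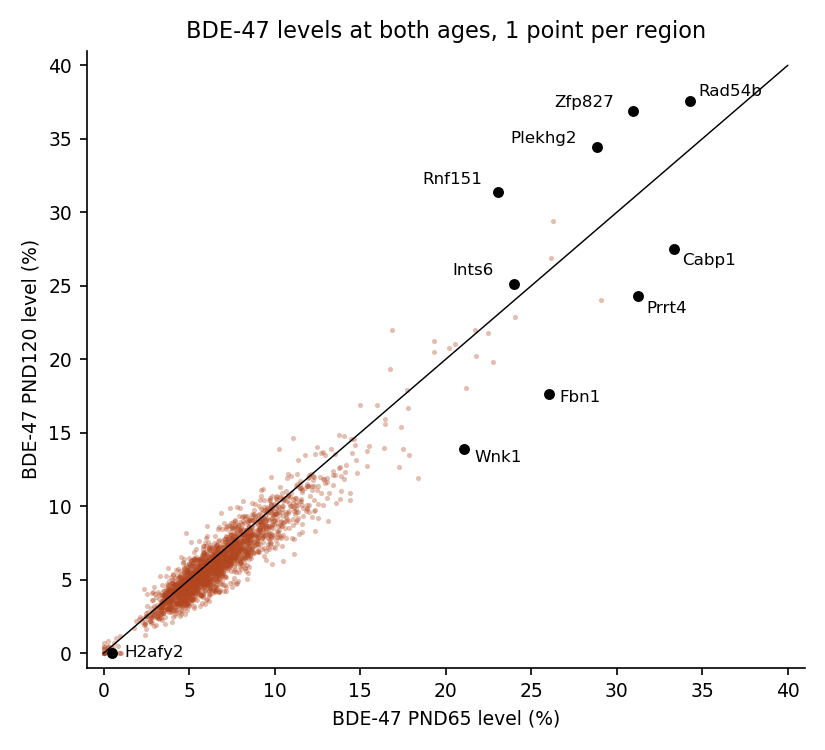
Level in BDE-47 PND120 animals (y axis, percent) against BDE-47 PND65 animals (x axis, percent), 1 point for each of the 2257 regions, with the line of equal levels. Most points sit close to the line, the black points are named regions, with Rad54b at 37.6% at PND120 and 34.3% at PND65, and H2afy2 marks the group near 0% at both ages.

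The BDE-47 gains of at least 5 points lay in Rnf151, Zfp827, Plekhg2 and Usp21. Rnf151, a RING finger gene expressed in mouse testis, had 31.4% at PND120 and 23.1% at PND65 in BDE-47 animals, against control values of 11.1% and 0.297%, a BDE-47 difference of 8.33 points. The deubiquitinase gene Usp21 had 22.0% and 16.9% in BDE-47 animals, against control values of 10.96% and 1.14%. Below them, with BDE-47 differences from 2.65 to 3.64 points, came the neurofilament gene Nefh, the adhesion gene Sdk2, the anion exchanger gene Slc26a4, Rad54b, Sap30 and Qtrt2, which modifies transfer RNA.

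The losses of at least 5 points in BDE-47 animals lay in Fbn1, Wnk1, Prrt4, Ccdc13, Cabp1 and LOC100910970. Fbn1, which encodes the microfibril protein fibrillin-1, had 17.6% at PND120 and 26.1% at PND65 in BDE-47 animals, against control values of 9.06% and 0.470%, a BDE-47 difference of -8.41 points. The kinase gene Wnk1, a regulator of ion transport, had 13.9% and 21.1% in BDE-47 animals, against control values of 8.68% and 0.0889%. In Cabp1, which encodes a neuronal calcium-binding protein, they were 27.5% and 33.3%, against 12.7% and 0.681%. These 6 regions had higher BDE-47 than control levels at both ages. A second region of Fbn1, with 6 CpGs, stood at 6.54% and 6.37% in BDE-47 animals, against control values of 8.95% and 0.302%. Tmem56, Npnt, Ubn2 and Abhd13 followed, with BDE-47 differences from -4.59 to -4.21 points.

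The regions were small. Their median length was 89 bp (quartiles 45 and 200) and their median CpG number 4, and 1228 were shorter than 100 bp (54.4%). The spread of values was wider where there were fewer CpGs, though the ranges also cover different numbers of regions. The quartiles in BDE-47 PND120 animals were 4.54 and 7.98% with 3 CpGs and 4.82 and 6.71% with 10 or more. With 3 CpGs (1013 regions) BDE-47 levels ran from 0 to 37.6% at PND120 and from 0 to 34.3% at PND65, and the median control difference was 10.1 points. With 10 or more CpGs (54 regions) BDE-47 levels ran from 2.99 to 8.94% at PND120 and from 3.36 to 10.4% at PND65, and the median control difference was 8.19 points. None of those 54 regions moved by 5 points in BDE-47 animals, and their median BDE-47 difference was -0.523 points. The read depth of each group was not analysed here, so whether the wider spread with 3 CpGs reflects fewer reads was not tested.

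Of the 5 regions with most CpGs, 4 lay in developmental transcription factor genes. After LOC103691185 with 22 CpGs came Pitx1, a homeobox gene of the hindlimb and pituitary, with 19 CpGs on chromosome 17 from 8873384 to 8877815. Its levels were 6.94% and 7.82% in BDE-47 animals at PND120 and PND65, against control values of 11.2% and 1.99%. Msx2, a homeobox gene of the skull and limb, also had 19 CpGs, with 5.93% and 5.70% in BDE-47 animals, against control values of 9.64% and 1.24%. Pax3, of the neural crest and muscle lineage, had 18 CpGs, with 4.89% and 5.55%, against 8.12% and 1.15%. Sp9, a zinc-finger gene of the limb and forebrain, had 16 CpGs, with 8.50% and 8.00% in BDE-47 animals, both above its 7.78% in Control PND120 animals and 1.56% in Control PND65 animals. In the other 3 the BDE-47 values lay between the control values.

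Pitx1 also lay nearest below the level that bounds the regions, with Ltbp4 at 1.98% and Cops2 at 1.98% in Control PND65 animals. Nearest above it, and not among the 2257, were regions in Hs3st3b1, Itgb4 and Rb1cc1 at 2.01 to 2.02%. Another region of Hs3st3b1, at 0.563% in Control PND65 animals, is among the 2257. BDE-47 levels ran from 6.15 to 7.82% in the 3 regions nearest below the bound and from 5.94 to 10.7% in the 3 nearest above it.

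Several genes carried more than 1 of the regions. There were 270 genes with 2 or more, holding 588 regions, and 304 of 2236 gaps between neighbours were under 1000 bp, so such neighbours can share reads and animals. Within a gene, the range of levels had a median of 2.11 points in BDE-47 PND120 animals, 2.32 points in BDE-47 PND65 animals, 2.85 points in Control PND120 animals and 0.233 points in Control PND65 animals. The 7 genes with 4 regions were Skor1, Sall1, Bahd1, Ppp3ca, Tesc, Trim36 and Vldlr.

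Skor1, a SKI-family corepressor, had its regions on chromosome 8 between 68034201 and 68038622. BDE-47 levels were 4.97 to 10.9% at PND120 and 5.29 to 13.2% at PND65, against control values of 7.28 to 18.5% and 0.501 to 0.557%. In the zinc-finger gene Sall1 BDE-47 levels were 4.40 to 7.41% and 4.35 to 10.2%, against control values of 7.35 to 13.6% and 0.348 to 1.76%. Bahd1, a heterochromatin protein gene, had its 4 regions within 857 bp, with 2.77 to 6.71% and 4.39 to 6.55% in BDE-47 animals, against control values of 8.17 to 11.6% and 0.315 to 0.651%. In Ppp3ca, the catalytic subunit of calcineurin, BDE-47 levels were 3.84 to 6.11% and 4.68 to 6.93%, against control values of 8.34 to 12.5% and 0.368 to 0.625%. In each of these genes the 4 Control PND120 values lay above the 4 BDE-47 values of the same region at both ages. The same order held in Tesc and Vldlr, the lipoprotein and reelin receptor gene. In the longest region of the ubiquitin ligase gene Trim36, the BDE-47 PND65 level of 11.99% equalled the Control PND120 level to that digit, beside 11.4% in BDE-47 PND120 animals and 0.737% in Control PND65 animals.

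Among the gene lists, homeobox, paired-box and patterning factors held the most of the regions. Of all 4131 genes with any age DMR, 1939 had at least 1 of the regions, to be set beside the counts of each list. Of 149 homeobox, paired-box and patterning factors, 82 had any age DMR and 54 had at least 1 of the regions described here, 70 regions in all. Their median levels were 6.30% and 6.71% in BDE-47 animals at PND120 and PND65, against control values of 11.1% and 0.629%, beside 5.83%, 6.27%, 10.1% and 0.481% over all 2257 regions in the same order. The BDE-47 age difference was above 0 in 23 of the 70 regions (32.9%, beside 28.4% of all 2257), and both BDE-47 levels lay between the control levels in 68 (97.1%, beside 93.4%). The list does not hold Nkx1-1 and Nkx1-2, homeobox genes with regions under 2% in BDE-47 animals and below both control levels at PND120. Hoxb9, an axial patterning gene, had 14.0% and 12.5% in BDE-47 animals, against control values of 19.1% and 0.357%. Nkx2-2, of the ventral spinal cord and pancreas, had 9.60% and 11.4%, against 16.7% and 0.387%. In Dlx3 the BDE-47 levels were 10.0% and 10.2%, against control values of 15.5% and 0.724%.

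Of 139 forkhead, Sox, T-box and bHLH factors, 76 had any age DMR and 41 had 53 of the regions. The medians were 6.40% and 6.59% in BDE-47 animals, against control values of 10.3% and 0.578%, and both BDE-47 levels lay between the control levels in 52 (98.1%, beside 93.4% of all 2257). Foxo6 had 9.08% and 8.68% in BDE-47 animals, against control values of 18.8% and 1.30%. Sim2 and the X-linked gene Sox3 had BDE-47 levels of 8.48 to 10.8%, between their control levels. Zinc-finger and Kruppel-like factors had 55 regions in 32 of 107 genes, 60 of which had any age DMR. Their medians were 5.51% and 5.97% in BDE-47 animals, against control values of 10.4% and 0.566%, with Osr1 (9.98% and 11.1%, against 18.1% and 0.547%) and Zfp521 (8.99% and 10.7%, against 17.6% and 0.591%) after Skor1 by control difference.

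Of 143 genes of Wnt, Hedgehog, BMP, FGF and Notch signalling, 69 had any age DMR and 38 had 43 of the regions, with medians of 5.90% and 5.79% in BDE-47 animals, against control values of 9.54% and 0.489%. Their median BDE-47 age difference was -0.0275 points, beside -0.432 points over all 2257, and it was above 0 in 20 of the 43 regions (46.5%, beside 28.4%). This difference from all regions was not tested. Lef1, a transcription factor of the Wnt pathway, had 3.93% and 3.38% in BDE-47 animals, against control values of 15.1% and 0.231%. The ligand gene Wnt5a had 10% and 10.9%, against 13.1% and 0.467%, and the Wnt antagonist gene Sfrp2 8.63% and 7.65%, against 13.0% and 0.447%. The BDE-47 levels thus sat near the Control PND120 level in Wnt5a and far under it in Lef1.

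Of 91 insulin, PI3K and mTOR genes, 32 had any age DMR and 20 had 26 of the regions, with medians of 5.61% and 6.23% in BDE-47 animals, against control values of 9.73% and 0.401%. All 26 had BDE-47 levels between the control levels at both ages, beside 93.4% of all 2257, and a level above the PND65 control is largely fixed by the rule. Pik3r1, the regulatory subunit of PI3K, had 7.58% and 8.70% in BDE-47 animals, against control values of 14.8% and 0.504%, and the kinase gene Gsk3b 9.86% and 11.7%, against 13.9% and 0.391%. Phlpp1, a phosphatase that acts on Akt, had 6.65% and 8.29%, against 15.9% and 0.355%.

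Histone and DNA methylation modifiers had 43 of the regions in 33 of 140 genes, 49 of which had any age DMR. The medians were 6.18% and 6.55% in BDE-47 animals, against control values of 10.4% and 0.531%, and the BDE-47 age difference was above 0 in 10 of the 43 (23.3%, beside 28.4% of all 2257). Jmjd6, which encodes a JmjC-domain hydroxylase, had 9.34% and 11.7% in BDE-47 animals, against control values of 18.5% and 0.358%. The lysine methyltransferase gene Smyd2 had 9.76% and 12.3%, against 16.8% and 0.730%, and the deacetylase gene Hdac4 7.83% and 9.24%, against 15.4% and 0.686%. Uhrf1, which directs maintenance methylation, gave the largest control difference of the list, 18.5 points, with a BDE-47 difference of -0.669 points. In all 4 genes the BDE-47 level was lower at PND120 than at PND65, as in 71.2% of all 2257 regions.

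Ion channel, receptor and synaptic genes had 39 of the regions in 34 of 201 genes, 64 of which had any age DMR, with medians of 6.19% and 6.37% in BDE-47 animals, against control values of 10.4% and 0.574%. The potassium channel gene Kcnk10 had 14.6% and 14.5% in BDE-47 animals, against control values of 18.6% and 0.283%, while Kcnq5 had 6.38% and 6.33%, against 16.9% and 0.482%. Kcnk13 had 9.87% and 11.9%, against 17.1% and 0.384%, and the postsynaptic scaffold gene Shank1 6.59% and 7.51%, against 18.5% and 0.542%. Channel genes with like control values therefore differed in their BDE-47 level, from 6.33% in Kcnq5 to 14.6% in Kcnk10. Adhesion and matrix genes had 24 of the regions in 19 of 116 genes, 31 of which had any age DMR, with medians of 6.94% and 6.79% in BDE-47 animals, against control values of 9.52% and 0.508%. At PND65 this list held the widest BDE-47 range, from 0.386% in Col4a1 to 26.1% in Fbn1. At PND120 it ran from 0% in Col4a1 to 17.6% in Fbn1. The PND120 ranges were wider in the channel list (0.8 to 19.4%) and the histone and DNA methylation list (2.77 to 21.3%). The laminin gene Lama5 had 10.7% and 10.1% in BDE-47 animals, against control values of 16.4% and 0.522%, and the cadherin gene Cdh11 6.40% and 6.72%, against 13.5% and 0.900%.

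The remaining lists held few of the regions, and few of their genes had any age DMR. The counts below of genes with a region are to be set beside 1939 of all 4131 genes with any age DMR. Of 119 spermatogenesis and sperm function genes, 12 had any age DMR. Of these, 6 had 6 of the regions, with medians of 4.73% and 5.15% in BDE-47 animals, against control values of 8.83% and 0.418%. They included Zpbp2 of the acrosome (5.15% and 5.92% in BDE-47 animals, against control values of 13.4% and 0.709%), the sperm calcium channel gene Catsper2 (5.47% and 5.07%, against 10.9% and 0.527%), Tbpl1 and the spermatid transcription factor gene Crem (3.63% and 5.47%, against 8.70% and 0.260%). Of 95 thyroid, steroid and xenobiotic genes, 18 had any age DMR. Of these, 10 had 11 of the regions, with medians of 6.39% and 6.42% in BDE-47 animals, against control values of 11.4% and 0.508%. Besides Cyp26b1 these were led by the retinoic acid receptor gene Rara (7.68% and 8.61% in BDE-47 animals, against control values of 16.6% and 1.40%), Inhbb (5.41% and 6.42%, against 12.6% and 0.252%) and the thyroid hormone receptor gene Thrb (7.88% and 9.35%, against 12.5% and 0.629%). Of 69 imprinted genes, 6 had any age DMR. Of these, 3 had 4 of the regions, namely Jade1, Cd81 and Ascl2. BDE-47 levels there were 6.29 to 8.93% and Control PND120 levels 9.75 to 13.9%.

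**Figure D5:**
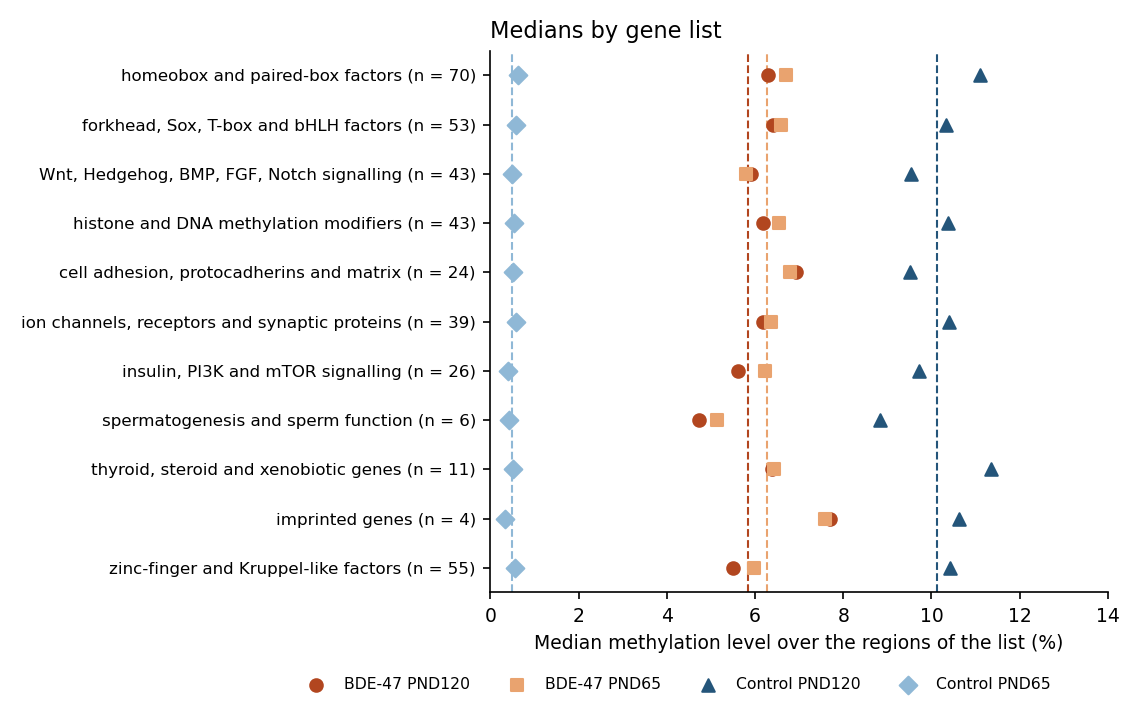
Median methylation level in percent (x axis) over the regions of each gene list (rows, with the number of regions) in the 4 groups. Dashed lines are the medians over all 2257 regions, 5.83% and 6.27% in BDE-47 animals, 10.1% in Control PND120 animals and 0.481% in Control PND65 animals. The list medians ran from 4.73 to 7.70% in BDE-47 PND120 animals and from 8.83 to 11.4% in Control PND120 animals.

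The median BDE-47 age difference of a list ran from -0.923 points in thyroid, steroid and xenobiotic genes to 0.0955 points in imprinted genes, beside -0.432 points over all regions. The median control difference ran from 8.54 to 10.6 points, beside 9.57 points. The lists were not tested, and their genes are no replicates of a condition.

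Other gene-body regions of the table had the same order of groups at higher levels. In the 811 gene-body regions at 2 to under 10% in PND65 controls, the median levels were 10.1% and 10.6% in BDE-47 animals at PND120 and PND65, against control values of 14.6% and 4.90%. Their median age difference was -0.477 points in BDE-47 animals and 9.18 points in controls, close to the -0.432 and 9.57 points of the regions under 2%. In the 341 gene-body regions at 10% or more, the BDE-47 difference had a median of 0.0653 points and wider quartiles of -0.811 and 1.70, and in 43 of them (12.6%) the BDE-47 level was at least 5 points higher at PND120. The BDE-47 minus control difference at PND120 had a median of -4.25 points in the regions under 2%, -4.27 points in the middle class and -3.54 points in the highest class. No test between these classes was made, since regions are not replicates. Regions of at most 10000 bp under 2% in PND65 controls that lay outside a gene body numbered 634 and had medians of 6.02% and 6.36% in BDE-47 animals, against control values of 10.1% and 0.490%.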

How the data were processed

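Reduced representation bisulfite sequencing libraries were made from sperm of 24 rats. The series' design text names Bismark 0.16.1 with Bowtie2 2.2.9 for mapping to rn6, nudup 2.2 for duplicate removal, a minimum of 10 reads per CpG, MethPipe for the DMR calls, and closest-features 2.4.25 for the gene assignment. The authors deposited 1 methylation fraction (0 to 1) per region and group, and how animals were combined is not given in the sources used here. The table keeps regions with at least 3 CpGs and q below 0.05, per the file headers.

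Fractions were multiplied by 100, and differences are PND120 minus PND65 or BDE-47 minus control, in percentage points. They matched the deposited difference columns to within 1.42e-14 points. Of the columns, 0 hold single animals, so no test was run, no SD is given, and p-values appear nowhere. Medians, quartiles and correlations run over regions (pandas 2.3.3). Whether starts count from 0 or 1 is not stated in the table.

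The regions and gene lists were chosen with earlier results of these data known. Named regions were the 10 largest and 5 smallest control differences, the 10 highest and 10 lowest BDE-47 differences, the 5 with most CpGs, genes with at least 4 regions, up to 4 per list by control difference, and the 3 on each side of the 2% bound. Others are marked as chosen after their values were seen, and some named by the rule are not reported here. Genes of 2 lists count in both. Symbols matched RefSeq for 1757 genes directly and 72 by an older symbol. Promoter windows were found for 1475 of 1939 genes (76.1%), under the 80% needed, so a comparison of promoter CpG content is void and was not made. Alternatives changed the level bound, the length limit, the CpG minimum and the regions per gene.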

Additional observations from a re-analysis of the deposited data

Results flagged for a closer look

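In 6 regions BDE-47 animals had a level lower at PND120 than at PND65 by at least 5 points, while in controls it was higher by at least 5 points. All 2257 regions had such a control gain, as had 99.1% of all age DMRs, so these are the 6 BDE-47 losses of that size. The way the regions were chosen and listed favours such control gains. The difference between the arms was not tested, because each group has 1 value. The BDE-47 age difference was -8.41 points in Fbn1, -7.18 points in Wnk1, -6.93 points in Prrt4, -6.44 points in Ccdc13, -5.80 points in Cabp1 and -5.05 points in LOC100910970. In the same order the control difference was 8.59, 8.59, 9.68, 8.37, 12.1 and 10.1 points. All 6 held 3 or 4 CpGs.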

How the results depend on the processing

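Over 48 recomputed values, 39 stayed within the 95% interval over regions of the reported value (for counts of regions, within 1.5 times), 9 moved and 0 changed sign. Only the median BDE-47 age difference could in practice have changed sign. The interval treats regions as independent, and all alternatives but the CpG minimum kept most of the same regions. Their agreement with the reported values was therefore largely set beforehand. Most of the moves came from keeping regions with at least 10 CpGs. This left 54 regions, with a median control difference of 8.19 points, a median BDE-47 PND65 level of 6.02%, a median BDE-47 age difference of -0.523 points and a BDE-47 gain in 14.8%. Levels of BDE-47 animals fell between those of the controls in 98.1% of them at PND120 and in 96.3% at PND65. With the bound at 5% in place of 2% the median BDE-47 level was 6.24% at PND120 and 6.66% at PND65. The cause of these moves was not tested. A bound of 1%, a length of at most 1000 bp, no limit on length and 1 region per gene moved none of the reported values. No paired analysis was possible because the tables hold 1 value per group, and for the same reason no animal could be left out. Read depth per region is unknown, and so is the precision of the levels with few CpGs.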

Other observations

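The regions were spread over the autosomes and chromosome X. Among autosomes, counts ran from 56 on chromosome 13 to 275 on chromosome 1. These were 70.9% of the 79 and 66.4% of the 414 gene-body regions of at most 10000 bp there. Such shares ran from 57.6% on chromosome 12 to 78.6% on chromosome 18. The autosome medians of the BDE-47 age difference ran from -0.576 to -0.287 points. Chromosome X held 6 regions (46.2% of 13), with a median of -1.02 points. In Bcor, a corepressor gene, the levels were 12.8% and 15.4% in BDE-47 animals at PND120 and PND65, against control values of 8.24% and 1.22%, and in the histone demethylase gene Phf8 5.83% and 6.34%, against 9.09% and 0.314%. The kinase gene Pim2 had 8.91% and 10.5% in BDE-47 animals, against control values of 12.1% and 1.00%. Shroom2 had 20.2% and 21.8%, against 18.8% and 0.510%. With Lamp2 near 0% in BDE-47 animals, the 6 regions of chromosome X spanned both tails.

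Of the 30 exposure DMRs in the authors' second table, 0 overlapped any of the 2257 regions and 1 overlapped any of the 5327 age DMRs. Their nearest gene was in the age table for 5, and carried one of the 2257 regions for 2, Tbx5 and Slc11a2. Of the 1939 genes, 454 also had another listed region, among them 190 with a gene-body region at 2 to under 10% and 81 with one at 10% or more in PND65 controls. In Crmp1 regions of the same gene differed by 13.5 points in Control PND120 animals, the widest such gap. A region of 4 CpGs there stood at 13.6% and 12.7% in BDE-47 animals, against control values of 20.5% and 0.273%. Another of 10 CpGs stood at 3.61% and 4.06%, against 6.97% and 1.04%.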
